A study of Mus musculus with 4 samples.

Results

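A set of 8 genes of the palatal epithelium whose loss causes cleft palate or adhesion of oral surfaces in mice was followed across the 4 arrays of a study of Tbx1 knockout embryos. They were chosen by gene symbol: Grhl3, Trp63, Foxe1, Tgfb3, Jag2, Ripk4, Sfn and Chuk. A row with 1 gene symbol was found for 7 of the 8, among 22180 genes with a value, and Chuk was not analysed here. Tbx1 encodes a T-box transcription factor of the pharyngeal region. The arrays (Affymetrix Mouse Gene 2.0 ST) held RNA of Tbx1 knockout head and wild-type head at embryonic day 12.5 (E12.5), and of Tbx1 knockout palatal shelves and wild-type palatal shelves at E13.5, with 1 array per group. All embryos were of mixed C57BL/6J x FVB/N background. The labels do not say which part of Tbx1 was deleted or whether RNA of several embryos was pooled, and 1 label field calls the E13.5 samples heads, where title, source and tissue say palatal shelves.

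The secondary palate forms from paired shelves that grow out of the upper jaw, lift above the tongue and fuse along their medial edges. Each shelf is covered by a basal epithelial layer and by periderm, a flat outer layer that keeps oral surfaces from sticking to each other until fusion. Transcription factors such as p63 and GRHL3 build these layers, signals such as TGF-beta 3 prepare the medial edge for fusion, and kinases and adaptor proteins of keratinocytes drive differentiation of the outer cells.

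Values are log2 expression as deposited, and a level is compared only between arrays of the same gene, not between genes. A gene entered a comparison of a pair of arrays when the higher of its levels reached 6.16, the median level of genes with a name on the 4 arrays. Knockout and wild-type arrays correlated over all clusters with a Pearson's r of 0.988 in the shelves and 0.991 in the head. A difference within a pair rests on 1 array per group and has no replicate check. Tbx1 itself was at 6.18 in knockout shelves against 7.39 in wild-type shelves, and at 6.25 in the knockout head against 6.83 in the wild-type head. All samples are bulk tissue, in which fewer epithelial cells and less RNA per cell cannot be told apart.

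The clearest difference among these genes lay between tissues. The transcription factors and Tgfb3 were about 2-fold higher in the E13.5 shelves than in the E12.5 head, in either genotype. No member that entered differed by 1.5-fold between knockout and wild type. Few of all genes that entered did so either, 3.25% in the shelves and 0.458% in the head. Trp63 encodes p63, the master regulator of stratified epithelia. Its level was 7.99 in knockout shelves and 8.13 in wild-type shelves, against 6.84 in the knockout head and 6.78 in the wild-type head. Both shelf arrays stood above both head arrays, and knockout and wild type lay close together in each tissue. Grhl3, a grainyhead factor of surface epithelium and periderm, read 8.26 in knockout shelves and 8.09 in wild-type shelves, against 7.29 in the knockout head and 7.21 in the wild-type head. Foxe1, a forkhead factor of palatal epithelium and thyroid, was at 6.54 in knockout shelves and 6.57 in wild-type shelves, against 5.66 in the knockout head and 5.55 in the wild-type head. The head levels of Foxe1 were below the entry level, where differences are compressed. Each of the 3 factors was thus higher on both shelf arrays than on both head arrays. With 2 arrays a side, this split was not compared with its share over all genes.

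Among the signals, Tgfb3 encodes the ligand that the medial edge epithelium needs for fusion, and it is also made in mesenchyme. Its level was 9.33 in knockout shelves and 9.09 in wild-type shelves, against 8.01 in the knockout head and 8.18 in the wild-type head. The knockout array was the higher of the pair in the shelves and the lower of the pair in the head. Jag2, a Notch ligand of oral periderm, was at 7.15 in knockout shelves and 7.27 in wild-type shelves, against 7.08 in the knockout head and 6.90 in the wild-type head. Its shelf levels were above its head levels, but the knockout arrays of the tissues were only 0.070 apart.

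Of the genes of keratinocyte differentiation, Sfn encodes 14-3-3 sigma, an adaptor protein of stratified epithelium. It read 7.19 in knockout shelves and 7.51 in wild-type shelves, against 6.91 in each of the knockout and wild-type heads. The wild-type shelf array was the highest of the 4. Ripk4, a kinase of periderm and keratinocytes, was at 6.05 in knockout shelves and 6.01 in wild-type shelves, against 5.62 in the knockout head and 5.31 in the wild-type head. All 4 of its levels were under 6.16, so it entered no comparison.

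**Figure D1:**
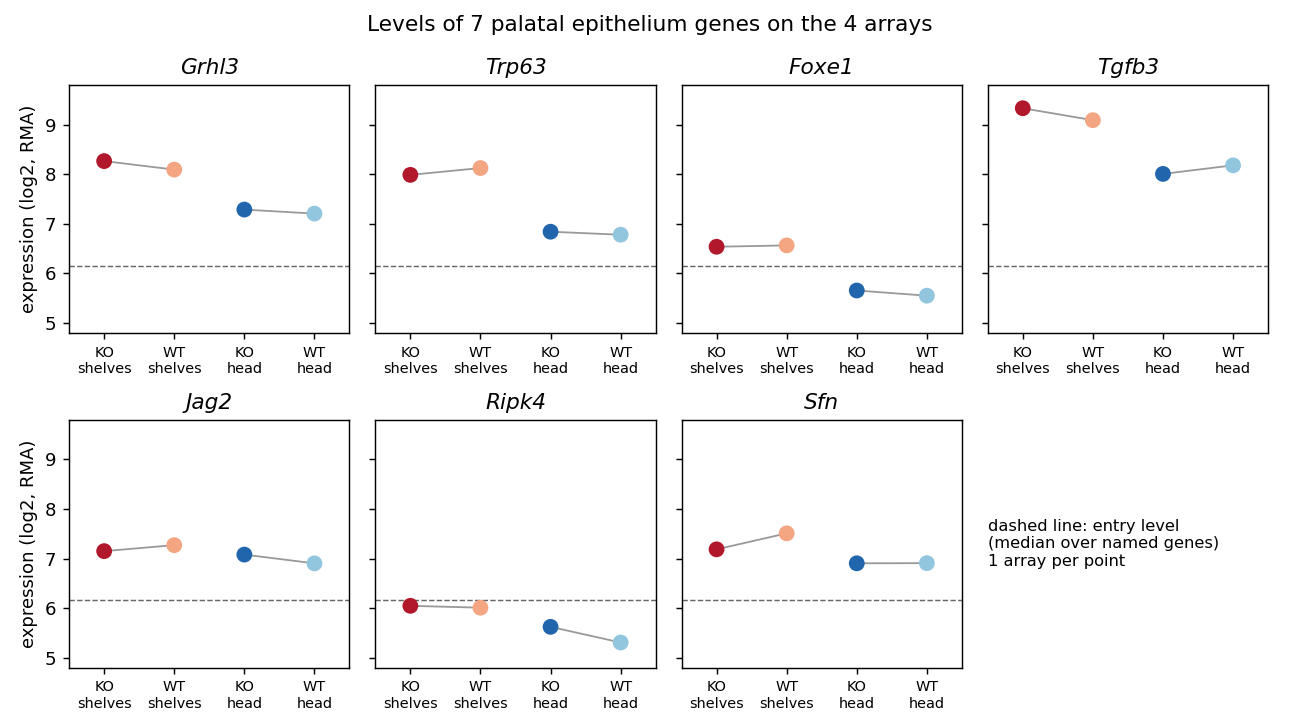
Expression (log2, vertical axis) of the 7 measured genes on each array, with knockout (KO) left of wild type (WT) in the shelves and in the head; each point is 1 array and the dashed line is the entry level of 6.16. Every gene is higher in the shelf arrays than in the head arrays, with the smallest step for Jag2, and knockout and wild type lie farthest apart for Sfn in the shelves and Ripk4 in the head.

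Between knockout and wild-type shelves, 0 of the 6 members that entered reached 1.5-fold, where 3.25% of 11449 genes did so in either direction. Sfn had the largest difference of these members, with a log2 difference of -0.32 (a knockout level 0.800 times that of wild type). An absolute difference at least as large was seen for 12.2% of all genes. Tgfb3 followed with a log2 difference of 0.24 (1.18-fold higher), as large as that of 20.9% of all genes. Grhl3 had a log2 difference of 0.17, Trp63 of -0.14, Jag2 of -0.12 and Foxe1 of -0.027. Of these 6 members, 2 were above 0 and 4 below, where 55.2% of all genes were above 0. Their median was -0.074, beside 0.021 over all genes that entered. For Ripk4, which did not enter, the log2 difference was 0.038.

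In the head, 0 of the 5 members that entered reached 1.5-fold, where 0.458% of 11364 genes did. Jag2 had a log2 difference of 0.18 (1.13-fold higher in the knockout) and Tgfb3 one of -0.17 (1.13-fold lower). Differences of at least these sizes were seen for 19.9% and 20.9% of all genes. Grhl3 was at 0.081, Trp63 at 0.060 and Sfn at -0.0037. The median was 0.060, beside -0.017 over all genes that entered. Of the members below the entry level, Foxe1 had a log2 difference of 0.10 and Ripk4 one of 0.32, the largest among the 7 in the head. Of the 5 members that entered both pairs, Tgfb3, Jag2 and Trp63 had opposite signs in the tissues, as did 48.8% of all such genes.

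How far such differences can be read is bounded by the agreement of probe sets of 1 gene. Where a gene had 2 transcript clusters above the entry level, their differences by genotype disagreed by an SD per cluster of 0.220 in the shelves (255 genes) and 0.177 in the head (254 genes). Of the differences of members that entered, those of Sfn and Tgfb3 in the shelves were larger than this disagreement. In the head, that of Jag2 equalled it (0.177) and was smaller with each array centred on its median (0.163). That of Tgfb3 in the head was smaller in size (-0.173) and became larger with the same centring (-0.187). Both clusters of a gene are read on the same arrays, so this SD leaves out variation between arrays and embryos. Passing it does not show that a difference exceeds such variation. Genotype differences in the shelves had an SD of 0.259 across 11449 genes. The Tgfb3 difference (0.24) was smaller than this, and that of Sfn (-0.32) was larger in size. Foxe1, the 1 member with 2 clusters, shows the disagreement between clusters directly. Its brighter cluster had a log2 difference of -0.23 in the shelves and its dimmer cluster one of 0.17, so that the direction in the shelves depends on the cluster taken. In the head the same clusters were at -0.00070 and 0.21.

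Across both tissues, 0 of the 6 members fitted passed the test of genotype. A limma fit with terms for genotype and tissue used all 4 arrays, 2 of them knockout and 2 wild type, and covered 11999 genes. Its spread joins 1 residual degree of freedom with a prior of 5.49 degrees of freedom from all genes. That 1 degree of freedom holds how the genotype difference varies between the tissues, not a spread between replicate arrays. Sfn had a log2 difference of -0.16 (SE 0.12) and a limma adjusted p of 0.969, and Grhl3 one of 0.13 (SE 0.10) with a limma adjusted p of 0.983. The other 4 lay between -0.039 and 0.039, and 0 of the 6 had an unadjusted p under 0.05. Over all genes, 0 (0.0%) had a limma adjusted p under 0.05, while 5.23% were under 0.05 before adjustment.

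**Figure D2:**
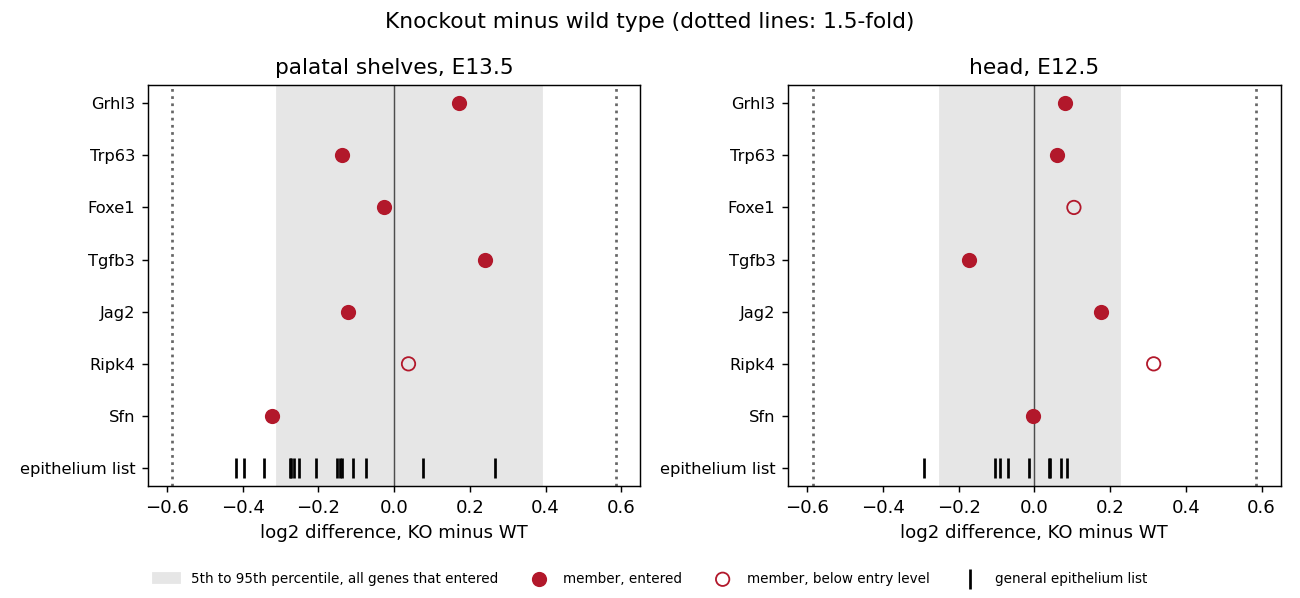
Log2 difference, knockout minus wild type (horizontal axis), of each member and of a list of general epithelial genes (ticks), in the shelves on the left and in the head on the right; grey marks the span from the 5th to the 95th percentile of all genes that entered and dotted lines mark 1.5-fold. No member passes a dotted line, Sfn lies at -0.32 in the shelves, and most epithelial ticks lie below 0 in the shelves.

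The epithelium around these genes was described with lists of other epithelial genes. In the shelves, 13 of the 15 general epithelial genes that entered (18 measured) were below 0 in the knockout, with a median of -0.21, and 0 reached 1.5-fold; over all genes that entered, 55.2% were above 0. Epcam, an adhesion protein of most simple epithelia, was at -0.42 and the membrane-anchored protease gene Prss8 at -0.40. The tight junction gene Cldn6 was at -0.34 and the polarity gene Crb3 at -0.28. Crb3 entered through the wild-type shelf array alone (6.33, against 6.06 in knockout shelves). Over all 18 measured genes of the list the median was -0.15, with 14 below 0. Its mean log2 level was 7.43 in knockout shelves and 7.57 in wild-type shelves, against 6.25 in each head array. In the head, 4 of 9 were above 0, where 44.5% of all genes were, and the median was -0.013.

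Set against that median of -0.21 in the shelves, the member differences minus the median were -0.12 for Sfn, 0.068 for Trp63, 0.085 for Jag2, 0.18 for Foxe1, 0.38 for Grhl3 and 0.45 for Tgfb3. The other epithelial lists went both ways in the shelves. Basal genes had a median of 0.012 (5 of 10 above 0), with the basal keratin gene Krt15 at 0.57 and Lamb3, a chain of laminin-332, at 0.56. Periderm genes had a median of -0.055 (4 of 8 above 0), with the keratin genes Krt6a at -0.38 and Krt19 at -0.34 and Krt7 at 0.25. Junction genes had a median of -0.034 (6 of 13 above 0), among them Tjp3 at -0.49 and Nectin4 at 0.49.

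Genes of other cell types also differed between the knockout and wild-type shelf arrays, 1 array per genotype. Of 11 measured olfactory and airway epithelium genes, dim ones included, 9 were below 0, and their mean level was 5.73 in knockout shelves against 7.02 in wild-type shelves. All 10 measured skeletal muscle genes were at least 1.5-fold lower, where 1.34% of all genes were. Of 10 measured neuronal genes, 4 were at least 1.5-fold higher, where 1.91% of all genes were, and 9 of 9 measured hypoxia-responsive genes were above 0, with a median of 0.95. Among mesenchymal genes, 9 of 10 were above 0, with a median of 0.094 that was smaller than the disagreement of probe sets (0.220). Over all genes that entered in the shelves, 55.2% were above 0. The part of these other tissues and of the hypoxia-responsive state in the differences of Sfn, Tgfb3 and Grhl3 was not tested.

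Genes of the pathways in which the signals act went both ways with genotype, read against 55.2% of all genes above 0 and 3.25% past 1.5-fold in the shelves. Of 19 other TGF-beta pathway genes that entered in the shelves, 14 were above 0 (median 0.085) and 1 passed 1.5-fold. This was Mmp13, a collagenase, with a log2 difference of -2.36. Mmp13 entered through the wild-type shelf array alone (6.40, against 4.04 in knockout shelves). Its drop is therefore partly selected by the entry rule. Tgfbr3, the co-receptor that presents TGF-beta ligands, was at 0.38, and Tgfbr1, the type I receptor, at -0.19. Of 17 other Notch pathway genes, 11 were above 0 (median 0.14) and 0 reached 1.5-fold. They included the feedback inhibitor Nrarp at 0.42 and the target gene Hey1 at -0.36. Of 10 genes of the IKK and ectodysplasin pathways, in which the Chuk product IKK-alpha acts, 6 were above 0 (median 0.043). Nfkb2 was at 0.32 and Relb at -0.30. Relb entered through the wild-type shelf array alone (6.16, against 5.86 in knockout shelves).

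Between shelves and head, 5 of the 6 members fitted were higher in the shelves, where 13.0% of 11999 genes were. Stage and tissue differ together here (E13.5 shelves, E12.5 head) and cannot be told apart. Trp63 had a log2 difference, shelves minus head, of 1.24 (SE 0.11, 2.37-fold, limma adjusted p 0.000414). Tgfb3 had one of 1.12 (SE 0.13, 2.17-fold, limma adjusted p 0.00125). For Foxe1 it was 0.95 (SE 0.10, limma adjusted p 0.000989) and for Grhl3 0.93 (SE 0.10, limma adjusted p 0.000986). Sfn was 0.44 higher (SE 0.12, limma adjusted p 0.0332), and this call was lost when the arrays were quantile normalized again (limma adjusted p 0.0603) and with no filter on dim genes (0.0967). Jag2 had a log2 difference of 0.22 (SE 0.11), which did not pass (limma adjusted p 0.207).

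Foxe1 passed the filter through its shelf levels alone. With no filter on dim genes, all 7 measured members were fitted over 22180 genes, of which 5.02% were called higher in the shelves. Ripk4 was then called (log2 difference 0.56, SE 0.13, limma adjusted p 0.0433), together with Trp63, Tgfb3, Grhl3 and Foxe1. Within the knockout arrays the differences, shelves minus head, ran from 0.070 for Jag2 to 1.32 for Tgfb3. Within the wild-type arrays they ran from 0.37 for Jag2 to 1.34 for Trp63. Probe sets of 1 gene disagreed in these differences by an SD per cluster of 0.333 in knockout and 0.438 in wild type. The Jag2 difference was smaller than this in each genotype. That of Sfn was smaller in knockout (0.28) and larger in wild type (0.60). Tgfb3 had the member difference that varied most between the genotypes, 1.32 within the knockout arrays and 0.91 within the wild-type arrays.

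General epithelial genes were higher in the shelves too. Of 15 fitted, 14 passed and 0 fell, with a median of 1.28 beside -0.020 over all genes fitted, and with no filter 17 of the 18 measured passed. Epcam (1.79), Rab25 (1.73), a GTPase of epithelial recycling endosomes, and Esrp1 (1.65), an epithelial splicing regulator, led this list. Of 11 basal genes 8 were higher and 1 lower, among them Krt15 (2.36), Perp (2.06), a desmosomal membrane protein, and Wnt7b (-1.07), the 1 that was lower. Of 8 periderm genes 6 were higher and 1, Gabrp, a subunit of the GABA receptor, was lower (-1.41), and Krt6a (3.09) and Krt17 (3.08) had the largest differences. Of 13 junction genes 10 were higher and 0 lower, including the desmosomal cadherin genes Dsc3 (2.34) and Dsg3 (2.33). Several of these genes, among them Rab25, Krt6a, Krt17, Dsc3 and Dsg3, passed the filter through the shelf arrays alone, and Wnt7b through the head arrays alone. With no filter, 9 of 13 measured basal genes, 8 of 11 periderm genes and 8 of 13 junction genes were higher, and 1 basal gene and 1 periderm gene were lower. The difference of Trp63 was thus close to the median of general epithelial genes, while those of Sfn (0.44) and Jag2 (0.22) were smaller. Within a genotype, the median of general epithelial genes that entered was 1.27 in knockout and 1.35 in wild type. The difference of Sfn minus this median was -0.99 in knockout and -0.75 in wild type, and that of Jag2 was -1.20 in knockout and -0.98 in wild type.

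Mesenchymal and neuronal genes marked the dissected tissues. Of 11 mesenchymal genes 7 were higher in the shelves, with the palatal factor Osr2 at 1.63, and 2 were lower, Twist2 (-1.23) and the intermediate filament gene Vim (-0.37). All 10 neuronal genes were lower, with a median of -2.04, where 14.9% of all genes were lower. The Notch pathway, which holds genes of neural progenitors, went the other way from the epithelial lists: 7 of 20 genes were lower and 1 was higher, with Hey2 at -1.68 and Hes5 at -1.47. Of 20 TGF-beta pathway genes 7 were higher and 1 lower. Tgfb1, a close relative of Tgfb3, was 0.56 higher (SE 0.10, limma adjusted p 0.00807), and Tgfb2 had a difference of 0.25 (SE 0.11) that did not pass (limma adjusted p 0.16). Grhl2, the relative of Grhl3, was 1.28 higher (SE 0.12, limma adjusted p 0.000502), and Jag1, the relative of Jag2, had a difference of 0.34 (SE 0.11, limma adjusted p 0.0636). Grhl2 passed the filter through the shelf arrays alone, where it is high, and Twist2 and Hes5 through the head arrays alone.

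**Figure D3:**
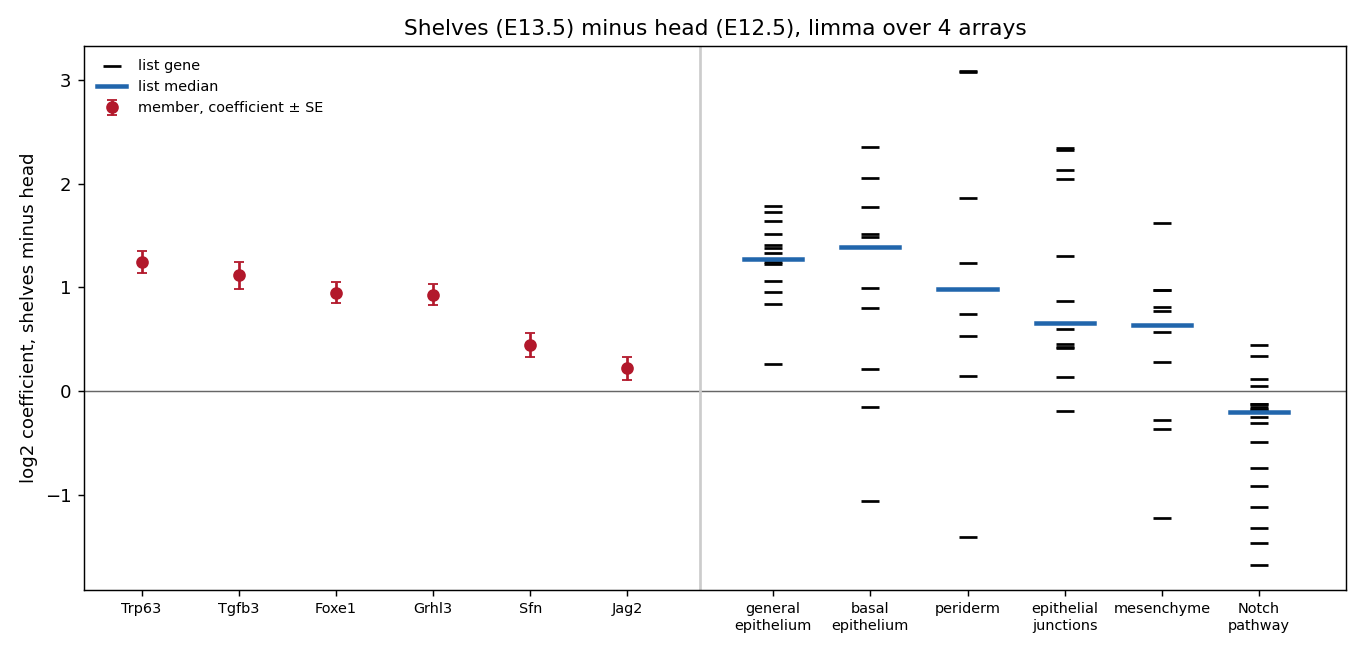
Log2 coefficient, shelves minus head (vertical axis), from the limma fit of 4 arrays: members with SE bars on the left, and on the right each gene (black) and the median (blue) of 6 gene lists. Trp63, Tgfb3, Foxe1 and Grhl3 lie between 0.93 and 1.24, near or below the general epithelium median of 1.28, while Sfn (0.44) and Jag2 (0.22) lie below them.

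The 5′ regions of Grhl3, Sfn and Jag2 are shown, the only measured members with a sequence in the source used. Their relation to the tissue differences was not tested. Each runs from 250 bases before to 50 bases after the transcript start in the RefSeq table of GRCm38.p6, 5′ to 3′ on the gene's strand, which is the minus strand for all 3. The table holds 4 of the 8 genes. Grainyhead proteins bind AACCGGTT, and capitals mark a match to the looser form AACNNGTT on either strand.
Grhl3 (chr4:135573583-135573882): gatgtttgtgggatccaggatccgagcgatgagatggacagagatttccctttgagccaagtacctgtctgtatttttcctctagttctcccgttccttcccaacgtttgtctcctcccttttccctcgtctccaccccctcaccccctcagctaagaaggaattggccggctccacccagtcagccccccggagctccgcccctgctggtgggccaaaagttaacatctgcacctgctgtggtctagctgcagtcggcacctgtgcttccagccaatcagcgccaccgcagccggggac
Sfn (chr4:133602119-133602418): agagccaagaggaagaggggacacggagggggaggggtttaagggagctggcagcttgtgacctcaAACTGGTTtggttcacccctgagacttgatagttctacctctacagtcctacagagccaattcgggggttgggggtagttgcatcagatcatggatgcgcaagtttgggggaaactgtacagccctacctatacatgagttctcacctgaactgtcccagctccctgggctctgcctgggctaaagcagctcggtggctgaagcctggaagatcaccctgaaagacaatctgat
Jag2 (chr12:112929446-112929745): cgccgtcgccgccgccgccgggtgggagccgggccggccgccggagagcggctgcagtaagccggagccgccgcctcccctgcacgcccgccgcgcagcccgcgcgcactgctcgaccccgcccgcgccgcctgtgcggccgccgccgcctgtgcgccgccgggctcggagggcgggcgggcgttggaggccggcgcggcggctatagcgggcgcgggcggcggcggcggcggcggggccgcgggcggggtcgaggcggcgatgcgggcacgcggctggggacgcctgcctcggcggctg
The Sfn window holds 1 match, AACTGGTT, that begins 184 bases before the start, and the Grhl3 and Jag2 windows hold 0. The looser form occurs in 4.2% of 32851 promoter windows of the same length, and AACCGGTT, which contains the same letters at the fixed positions, in 0.15%. No window of the 3 holds AACCGGTT or the p53-family half-site, which is found in 8.36% of windows. The Jag2 window is 86.0% G and C, against 58.3% for Grhl3, 54.0% for Sfn and a median of 52.7% over all windows.

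For the 4 members that spanned at least 1 log2 unit over the arrays, the genes with the closest profile were sought among 11238 fitted genes, by the root mean square (RMS) difference of the 4 levels after each gene was centred on its own mean. Trp63 was closest to Krt8 (RMS difference 0.0036), a keratin of simple epithelium and periderm, and to Ap1m2 (0.015), an epithelial clathrin adaptor subunit, both of which are on the general epithelium list. Mboat1 (0.022), a membrane-bound acyltransferase, came next. Tgfb3 was closest to Plod2 (0.026), a collagen lysyl hydroxylase, Pcsk6 (0.033), a proprotein convertase, and Loxl1 (0.039), a lysyl oxidase of elastic fibres. Grhl3 was closest to Mylip (0.021), Cdcp1 (0.025) and Ifitm2 (0.025), and Foxe1 to Acss3 (0.014), Gstm2 (0.022) and Vwa5a (0.026).

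The 4 arrays leave many genes alike: within an RMS difference of 0.1 there were 45 genes for Trp63, 42 for Tgfb3, 112 for Foxe1 and 126 for Grhl3. Among the members, Grhl3 and Foxe1 had the closest profiles (RMS difference 0.071) and Trp63 and Jag2 the most distant (0.51).

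**Figure D4:**
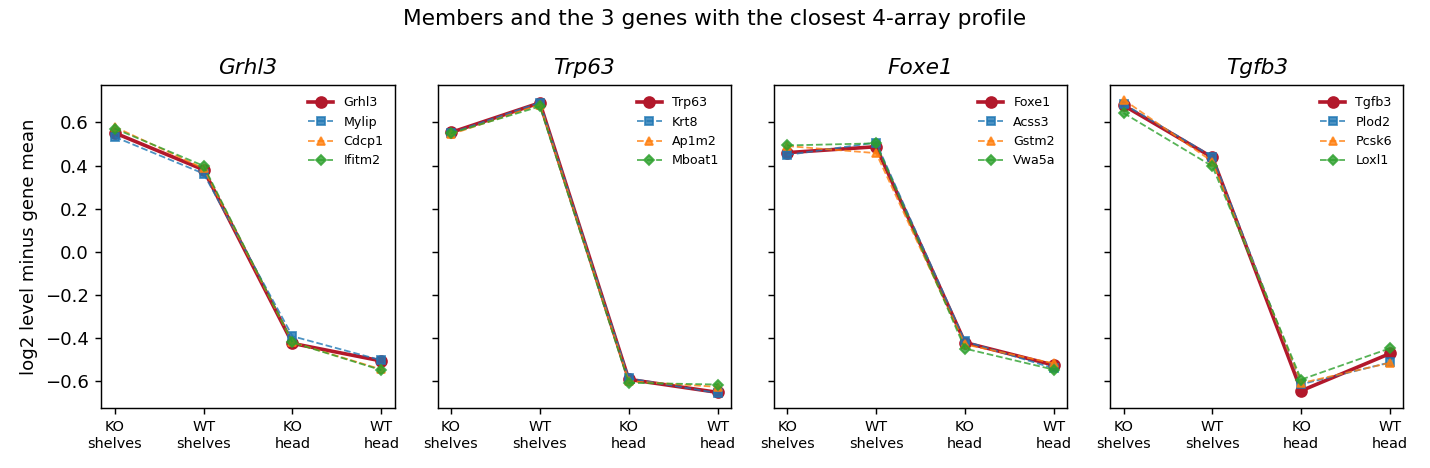
Log2 level minus the gene's mean over the 4 arrays (vertical axis) for 4 members (red) and the 3 genes with the closest profile to each (dashed), by array. The curves of Trp63, Krt8 and Ap1m2 lie on each other, and the knockout shelf array is the highest for Tgfb3 and Grhl3 but not for Trp63 and Foxe1.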

How the data were processed

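RNA expression was measured on 4 arrays, 1 per group. Per the submitters' processing notes, the authors used Affymetrix Expression Console and RMA to make the deposited log2 values, 1 per transcript cluster. RMA equalises the distributions of the arrays, so a shift shared by most genes is removed. The genome build was not given in the sources used here. Per the labels' protocols, 100 ng of total RNA was labelled with biotin. There is no read depth for arrays, and precision is limited by how few there are.

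Sample titles gave the groups. Of 41345 clusters, 23521 had 1 gene symbol in the platform annotation, and 23328 of these matched RefSeq (GRCm38.p6) by Entrez identifier. Clusters of a gene were averaged. Differences within a pair are knockout minus wild type, without a test, and were counted from 1.5-fold. The genotype and the shelves minus head coefficients came from 1 additive limma fit (limma 3.58.1 in R 4.3.3, lmFit and eBayes, Benjamini-Hochberg adjustment) over the 11999 genes whose highest array reached the entry level. The fit was also run on simulated data whose noise was drawn from its own prior, so that run could not test the fit for arrays without replicates. Each group has 1 array, so the 2 arrays on a side differ in tissue or genotype. The p-values rest on departures from the additive fit, joined with the prior from all genes, and not on a spread between replicates. Such departures may be technical.

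The members and lists were chosen with earlier results of these data known. The genes named are the members, up to 4 genes per list and comparison with the largest absolute difference, and the 3 closest genes by profile for members spanning at least 1 log2 unit, leaving out predicted genes, receptors of the olfactory family and small RNAs. The text gives a selection of them. Pathway list genes absent from the annotation used were not analysed here. Alternatives were 3 rescalings of the arrays, the brightest cluster of a gene, other filters and folds, and other priors of the fit.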

Additional observations from a re-analysis of the deposited data

Results flagged for a closer look

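Of the 5 members that entered both pairs, 3 had a knockout minus wild-type difference of opposite sign in the shelves and in the head. The difference in the shelves minus that in the head was 0.41 for Tgfb3 (0.24 in the shelves and -0.17 in the head), -0.30 for Jag2 (-0.12 and 0.18) and -0.20 for Trp63 (-0.14 and 0.060), each on the log2 scale. With 1 array per group this was not tested, and 48.8% of the 10814 genes that entered both pairs had opposite signs. For Tgfb3, the only one of these whose difference reached the disagreement between probe sets in the shelves, hypoxia-responsive genes were higher in the same knockout shelf array, and their part was not tested. The disagreement between probe sets leaves out variation between arrays and embryos.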

How the results depend on the processing

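No paired analysis was possible because the labels carry no replicate numbers and each group has 1 array, so no array could be left out of a pair either. The counts of members past 1.5-fold stayed at 0 in each pair under the 3 rescalings, the brightest cluster and both filters, and at 2-fold; at the lowest fold tried 1 member, Sfn, was counted in the shelves and 0 in the head. With the upper-quartile filter, which left 3 members in the shelves and 1 in the head, the median difference was 0.17 in the shelves and -0.17 in the head. Of 214 values under alternatives, 209 stayed within the disagreement of probe sets or on their side of the threshold. Part of this was fixed in advance, so the count does not measure robustness. A member with 1 cluster keeps its pair difference with the brightest cluster or another filter, and other priors leave each coefficient unchanged. The genotype coefficient called 0 members under all 8 alternatives, while over all genes it called 0 in the main setting, 11 with a mean-variance trend and 150 with 1 common variance. For the shelves minus head coefficient, Trp63, Tgfb3, Grhl3 and Foxe1 passed under all 8 alternatives, and Sfn under 6, the exceptions being quantile normalization again (log2 difference 0.45, limma adjusted p 0.0603) and no filter (0.44, 0.0967). The cause was not tested. Foxe1 had a log2 difference in the shelves of -0.23 with its brighter cluster, against -0.027 with the average, and its genotype coefficient was -0.11 against 0.039, neither past the threshold. Levels near the entry level limit what can be read for Foxe1 in the head and for Ripk4.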
